A study of Brassica napus with 30 samples.

Results

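The 64 gene models described here are from oilseed rape (Brassica napus) seeds of 2 genotypes. In both, their transcripts stayed within 2-fold between 8 h and 36 h of imbibition at 25 °C and were lower at 8 °C at both times. They were chosen from group means in CPM (a gene model's count scaled by the total of its library). The lower of the 2 group means at 25 °C was divided by the higher of the 2 at 8 °C, after adding 1 CPM to each, and the smaller log2 ratio of the 2 genotypes was the score. A gene model was kept at a score of at least 1 where both 25 °C means were at least 5 CPM and within 2-fold of each other in both genotypes. Within this limit the 25 °C level could still change. In the fit described below, log2 fold changes of 36 h over 8 h at 25 °C in the 64 ran from -0.65 to 0.92 in JY1621. In JY1605 they ran from -0.92 to 1.00. The rule allowed up to 200 gene models, and 64 of the 100919 in the table met it. The choice rests on these measured values, so the gap between temperatures below is a description and not a test.

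The libraries came from whole seeds of genotypes JY1621 and JY1605, whose label gives no more than these names. Each genotype was sampled in the cold (8 °C) and in the warm (25 °C) after 8 h and again after 36 h of imbibition, and as dry seeds, with 3 libraries per group, 30 in all, each from RNA of 100 seeds. Dry seeds were taken at zeitgeber time 0, 8 h seeds at 8 and 36 h seeds at 12, so time of day goes with sampling time but not with temperature at a given time. Libraries held 14250480 to 78251632 counts. The deepest, the first warm JY1621 replicate at 36 h, stood apart, as the next held 35172867. Replicates correlated at 0.972 to 0.99 in log2 CPM, and in each of the 30 the best match was another library of the same group. The labels do not tell whether the 3 libraries of a group are separate seed lots, so p-values measure the spread between these libraries, which may be technical.

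A dry seed holds messenger RNA stored during its maturation. Taking up water restarts respiration, translation and then transcription, and new transcripts replace stored ones as germination proceeds. Low temperature slows these steps, and oilseed rape is often sown into cool soil. The gene IDs carry a chromosome and an order along it, and 0 of them had a match in RefSeq's gene table, made for another assembly, so neither names nor functions nor sequences are given. For the same reason the tissue could not be checked against marker genes. B. napus carries an A and a C subgenome with near-identical gene copies. The labels do not tell how reads matching both copies were counted, so the count of a copy can hold reads of its partner. In whole seeds, less RNA per cell and fewer cells that express a gene cannot be told apart.

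The summed level of the 64 gene models is weighted toward the most abundant and need not be the course of each. BnaC01G0215300ZS, named after its values were seen, made up 21.9% of the dry sum in JY1621 and 28.6% in JY1605. At 8 h and 8 °C it made up 19.5% and 24.9%. At 36 h and 8 °C it held 114 CPM in JY1621, against 220 CPM in dry seeds, and 157 CPM in JY1605, against 208 CPM, while the sums were higher than in dry seeds. In JY1621 they summed to 1004 ± 65 CPM in dry seeds, 955 ± 49.7 CPM after 8 h at 8 °C and 1511 ± 98.8 CPM after 36 h at 8 °C (SD, n = 3). At 25 °C they summed to 5527 ± 149.9 CPM after 8 h and 7178 ± 225 CPM after 36 h. In JY1605 the sums were 728 ± 4.75 CPM in dry seeds, 745 ± 44.5 CPM after 8 h at 8 °C and 1292 ± 125 CPM after 36 h at 8 °C, and at 25 °C 4346 ± 424 CPM after 8 h and 4879.5 ± 316 CPM after 36 h. The 8 °C libraries at 8 h, at 899 to 992 CPM in JY1621 and 713 to 796 CPM in JY1605, overlapped the dry libraries, at 958 to 1078 CPM and 723 to 733 CPM. The 36 h libraries at 8 °C lay above both, from 1397 CPM in JY1621 and from 1204 CPM in JY1605. Both statements depend on the scaling. With CPM scaled by the composition factors of the fit (TMM), the 8 h 8 °C libraries of JY1621 summed to 979 to 1082 CPM, against 1204 to 1339 CPM in its dry libraries, without overlap, while those of JY1605, at 883 to 1005 CPM, overlapped its dry libraries, at 961 to 993 CPM. On this scale the sum at 36 h and 8 °C was 1334 ± 86.9 CPM in JY1621, against 1252 ± 75.6 CPM in dry seeds, with overlapping libraries. In JY1605 it was 1178 ± 125 CPM at 36 h and 8 °C, against 973 ± 17.1 CPM in dry seeds, without overlap.

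**Figure D1:**
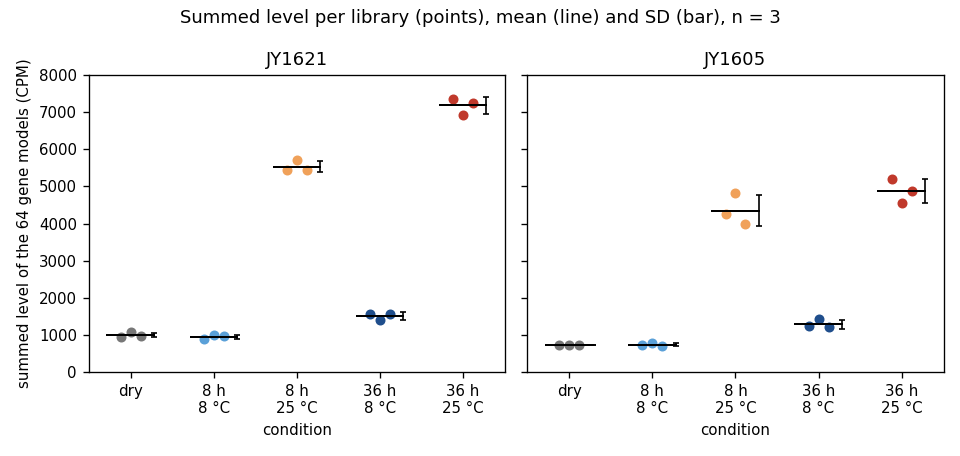
Summed level of the 64 gene models in CPM (y axis) in each library (points) by condition (x axis), JY1621 left and JY1605 right, with the group mean (line) and SD (bar), n = 3. The 8 h 8 °C libraries stand beside the dry ones, near 955 CPM in JY1621 and 745 CPM in JY1605, and the 25 °C libraries stand at 3981 CPM or more.

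The temperature contrast was used by the rule, so its size and the lack of overlap below are a description. In all 64 gene models every 8 °C library lay below every 25 °C library of its genotype and time, which the choice largely fixes. The same share over all tested gene models was not counted, so nothing about the 64 is read from it. After 8 h the median gene model stood at 13.1% of its 25 °C level in JY1621 and 11.7% in JY1605, with ranges of 2.09% to 48.3% and 1.25% to 47.0%. By 36 h it stood at 20.4% and 25.9%, with ranges of 4.6% to 48.9% and 11.2% to 47.0%. In the fit of all gene models, calls needed an adjusted p under 0.05 and a log2 fold change of at least 1 (edgeR's quasi-likelihood test, TMM factors, Benjamini-Hochberg adjustment over 57945 gene models, all 64 among them). It called 57 of 64 lower at 8 °C after 8 h in each genotype, where 16.4% of all tested gene models were called lower in JY1621 and 21.3% in JY1605. At 36 h it called 64 in JY1621 and 62 in JY1605, against 20.1% and 32.7% of all. These counts follow from the rule. All 64 passed the adjusted p, and those not called stayed under the fold minimum. Scaled by library size alone, as in the rule, all 64 were called lower in each of the 4 contrasts. On that scale 23.6% of all tested gene models were called lower in JY1621 and 36% in JY1605 at 8 h, and 19.9% and 34.4% at 36 h.

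BnaC07G0234400ZS, on C07, had the highest score, 2.75. After 8 h at 8 °C its level was 4.93, 7.13 and 6.4 CPM in JY1621, against 122, 124 and 116 CPM at 25 °C. In JY1605 it was 2.19, 6.23 and 3.06 CPM at 8 °C, against 66.8, 86.5 and 56.0 CPM at 25 °C. The 8 °C libraries overlapped the dry ones, which held 5.89, 9.95 and 8.69 CPM in JY1621 and 4.4, 4.47 and 3.58 CPM in JY1605. After 36 h at 8 °C it stood at 6.83 ± 1.27 CPM in JY1621, against 149 ± 20.4 CPM at 25 °C, and in JY1605 at 8.52 ± 3.07 CPM, against 62.9 ± 12.5 CPM (SD, n = 3). The log2 fold changes were -3.98 and -3.55 at 8 h and -4.47 and -2.78 at 36 h in JY1621 and JY1605. BnaA07G0143900ZS, on A07, followed with a score of 2.37. It held 2.72 ± 1.06 CPM after 8 h at 8 °C in JY1621, against 44.5 ± 2.14 CPM at 25 °C, and 2.99 ± 0.318 CPM in JY1605, against 33.1 ± 5.67 CPM. After 36 h at 8 °C it was at 3.56 ± 1.08 CPM in JY1621 and 5.58 ± 0.907 CPM in JY1605, against 53.4 ± 3.77 and 48.0 ± 3.35 CPM at 25 °C.

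At the edge of the choice, the last 2 gene models inside had scores of 1.0017 and 1.0024, and the first 2 outside 0.988 and 0.982. The median score was 1.28, and 7 gene models scored 2 or more. The score was set by JY1605 in 43 gene models and by JY1621 in 21. Of the 11346 gene models that met the thresholds at 25 °C, 133 reached the score in JY1621 and 162 in JY1605, 64 in both. A further 51 gene models with at least 5 CPM at 25 °C reached the score but were not within 2-fold between 8 h and 36 h at 25 °C. The mirror-image rule, for gene models higher at 8 °C at both times and within 2-fold there, was met by 12. The choice was also made from 2 replicates per group and read in the one left out. These are libraries the rule used, and the replicates may be technical, so this is a description and no independent test. Of 63, 67 and 64 gene models chosen without replicates 1, 2 and 3, all had a score above 0 in the replicate left out, and 48, 40 and 46 had a score of 1 or more. The share of all gene models with a score above 0 there was not counted. Of these sets, 55, 51 and 57 gene models are among the 64. Among all gene models meeting the 25 °C thresholds, 62 of 11535, 54 of 11304 and 59 of 11090 reached a score of 1 in the replicate left out.

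**Figure D2:**
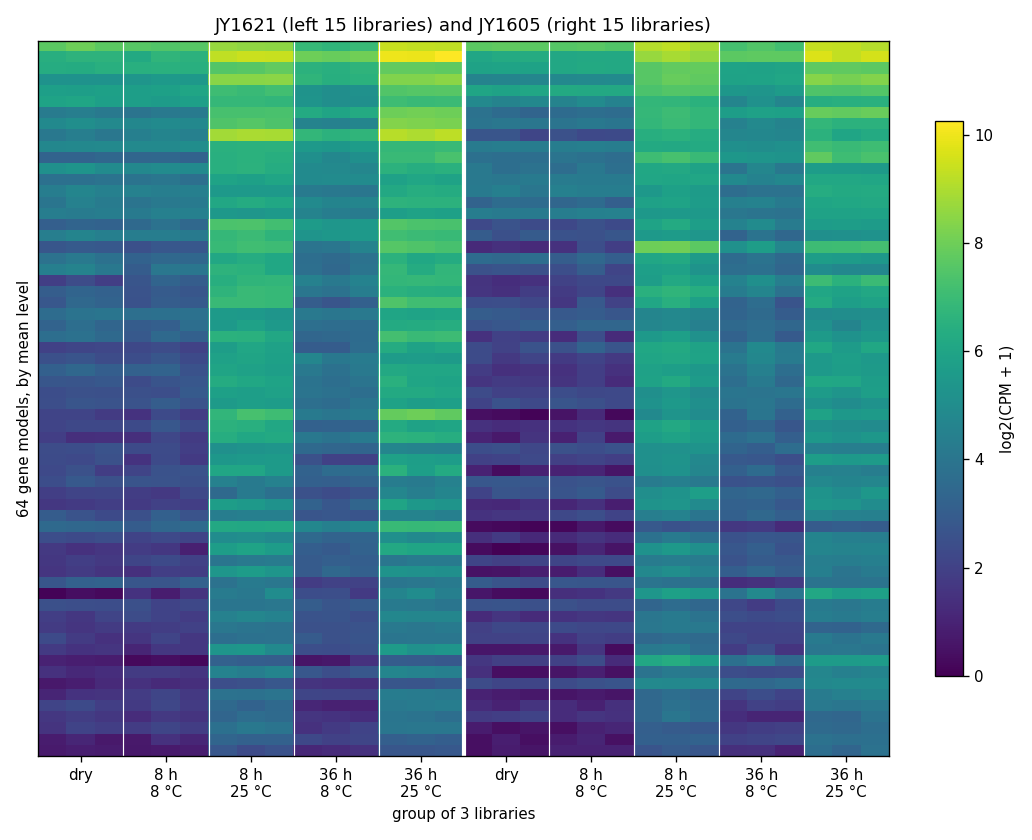
Level of each of the 64 gene models (rows, ordered by mean level) in each of the 30 libraries (columns) as log2(CPM + 1), with JY1621 left of the thick line and JY1605 right of it. In every row the 25 °C groups are brighter than the 8 °C and dry groups of the same genotype.

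Dry seeds did not enter the rule, and against them the 25 °C groups were higher. After 8 h at 25 °C, 56 of 64 gene models were called higher than dry in JY1621 and 57 in JY1605, where 22.2% and 24.7% of all tested gene models were (edgeR, adjusted p under 0.05). None was called lower by edgeR or by DESeq2's Wald test, against 19.4% and 20.8% of all, and none of the 64 log2 fold changes was below 0, whatever its unadjusted p (under 0.05 in 64 of 64). By 36 h at 25 °C, 60 were called higher in each genotype, against 26.2% of all in JY1621 and 36.6% in JY1605. Again none was called lower by edgeR or DESeq2, and all 64 fold changes were above 0 with an unadjusted p under 0.05, against 20% and 24.8% of all gene models called lower. Shares of all tested gene models by sign or unadjusted p are not given at either time. The 25 °C level was chosen to be high, so that a rise over dry seeds is partly built in, but the dry level was free. The median log2 fold change over dry was 2.31 in JY1621 and 2.61 in JY1605 at 8 h, and 2.61 and 2.92 at 36 h, where the medians of all gene models were 0, 0.15, 0.18 and 0.36. Under library size scaling the medians of all gene models lay 0.49 to 0.66 higher, and those of the 64 went up with them. Both genotypes called 54 of 64 higher at 8 h, against 16% of all tested gene models, and 57 at 36 h, against 20.1%. The rule asks for a high 25 °C level in both genotypes, so these joint counts are no independent support.

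Ranked by the smallest of the 4 fold changes over dry seeds at 25 °C, 2 gene models on A09 came first. BnaA09G0691700ZS reached 18.5, 16.2 and 30.6 CPM after 8 h at 25 °C in JY1621, against 0.0607, 0.311 and 0.214 CPM in dry seeds. In JY1605 it reached 41.4, 55.3 and 45.2 CPM, against 0.535, 0.276 and 0.211 CPM. The groups lay far apart, with log2 fold changes of 6.23 ± 0.536 and 6.42 ± 0.469 (SE; edgeR adjusted p = 8.34e-10 and 4.97e-11). BnaA09G0713200ZS reached 132 ± 24.1 CPM in JY1621, against 3.02 ± 0.464 CPM in dry seeds, and 32.9 ± 5.64 CPM in JY1605, against 0.216 ± 0.143 CPM (SD, n = 3). Its log2 fold changes were 4.96 ± 0.294 and 6.51 ± 0.495 (SE; edgeR adjusted p = 1.31e-12 and 1.05e-10). Dry levels this low rest on few counts, down to 6 over the 3 libraries of a group among all 64 gene models.

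After 8 h at 8 °C few calls were made against dry seeds. The rule capped the 8 °C level, so a rise over dry seeds was limited by the choice, but the dry level was free. Of 64, 1 was called higher than dry in JY1621 and 2 in JY1605, against 6.01% and 2.98% of all tested gene models. None was called lower by edgeR, against 0.48% and 0.423% of all, while 27 in JY1621 and 11 in JY1605 had an unadjusted p under 0.05 in either direction, and DESeq2 called 1 lower in JY1621 and 0 in JY1605. The share of all tested gene models at that unadjusted p is not given. The median log2 fold change was -0.26 in JY1621, with quartiles of -0.40 and -0.01, and 0.03 in JY1605, with quartiles of -0.20 and 0.24. In all gene models the medians were -0.02 and 0. With DESeq2's size factors the median in JY1605 was -0.04. In 44 gene models of JY1621 and 47 of JY1605 the CPM of 8 h 8 °C libraries overlapped those of dry libraries, 68.8% and 73.4%, against 70.4% and 72.3% of all tested gene models, so the overlap was at the background. A missing call does not show that the levels were equal. BnaA09G0691700ZS was the gene model called in both genotypes, at 1.87, 0.744 and 1.9 CPM after 8 h at 8 °C in JY1621, against the dry levels given above, and at 1.61, 1.87 and 2.28 CPM in JY1605. Its log2 fold changes were 2.71 ± 0.847 and 2.37 ± 0.718 (SE; edgeR adjusted p = 0.0276 and 0.0318). In JY1605 the other call, named after its values were seen, was BnaA05G0438100ZS, at 2.36 ± 0.758 (SE; edgeR adjusted p = 0.0384). The call of BnaA09G0691700ZS was lost in JY1621 without dry replicate 1 or 3 or 8 h 8 °C replicate 1 or 3, and in JY1605 without any 1 of the dry replicates or 8 h 8 °C replicate 2 or 3. Leaving out dry replicate 1 or 3 or 8 h 8 °C replicate 3 of JY1621 left 0 calls there, and leaving out dry replicate 2 gave 2. There, 2 were called lower without 8 h 8 °C replicate 2 and 1 without replicate 3. In JY1605, 0 were left without dry replicate 2 or 3 or 8 h 8 °C replicate 2, and 1 without dry replicate 1 or 8 h 8 °C replicate 3.

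**Figure D3:**
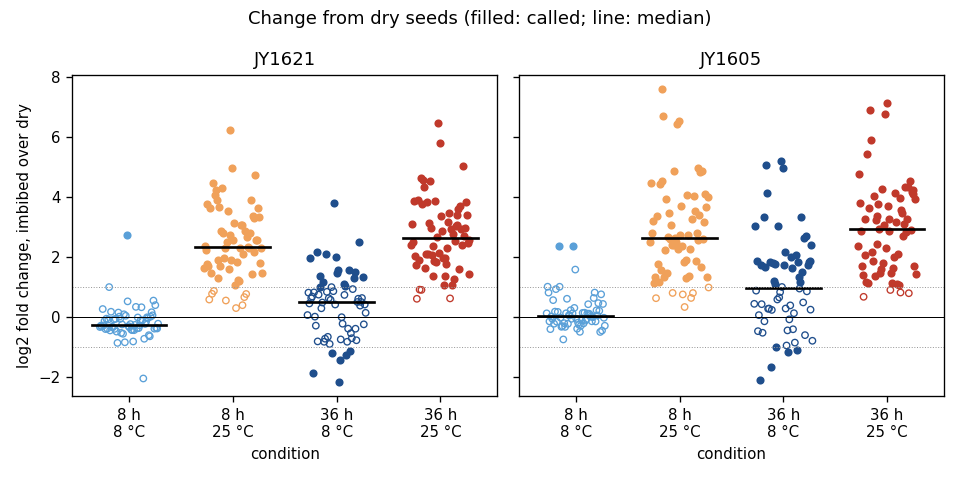
Log2 fold change of imbibed over dry seeds (y axis) for each of the 64 gene models (points) in 4 conditions (x axis), JY1621 left and JY1605 right. Filled points were called by edgeR, dotted lines mark a log2 fold change of 1 and -1, and bars mark the medians, from -0.26 and 0.03 at 8 h and 8 °C to 2.61 and 2.92 at 36 h and 25 °C.

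By 36 h in the cold the gene models parted. In JY1621, 17 were called higher than dry seeds and 6 lower, and in JY1605, 31 were called higher and 5 lower. Of all tested gene models, the fit called 25.5% higher and 22.1% lower in JY1621, and 26.6% and 23.7% in JY1605. Higher calls in JY1621 were thus near the background, and lower calls in both genotypes were below it. Both genotypes called 16 gene models higher, 25%, and 2 lower, 3.12%, against 19.3% and 15.6% of all tested gene models. Neither called 23, or 35.9%, against 37.4% of all. The median log2 fold change was 0.49 in JY1621 and 0.97 in JY1605, against 0.03 and 0.11 in all gene models. Under scaling by library size alone, where the all-gene median lay 0.50 and 0.55 (log2) higher, the counts were 31 and 2 in JY1621, and 39 and 2 in JY1605. On that scale 36% of all tested gene models were called higher and 14.6% lower in JY1621, and 38.1% and 14.5% in JY1605.

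The largest rise over dry seeds called in both genotypes was again that of BnaA09G0691700ZS. By 36 h at 8 °C it held 4.35, 4.48 and 2.39 CPM in JY1621 and 14.0, 27.4 and 15.3 CPM in JY1605, all above the dry libraries of the genotype. The log2 fold changes over dry were 3.79 ± 0.679 and 5.20 ± 0.504 (SE; edgeR adjusted p = 3.88e-05 and 4.96e-09). BnaA03G0121100ZS, on A03, had the largest fall called in both, where changes are ranked by the smaller of the 2 genotypes. It held 2.56, 3.03 and 3.02 CPM after 36 h at 8 °C in JY1621, against 5.64, 8.02 and 8.52 CPM in dry seeds. In JY1605 it held 1.56, 1.77 and 2.37 CPM, against 6.96, 5.41 and 4.21 CPM. The libraries did not overlap, and it fell by 1.88 ± 0.176 and 2.11 ± 0.192 on the log2 scale (SE; edgeR adjusted p = 6.05e-13 and 2.84e-13). At 25 °C the same gene model stood at 15.7 ± 2.2 CPM after 8 h and 15.9 ± 1.11 CPM after 36 h in JY1621, and at 13.5 ± 0.624 and 13.9 ± 0.302 CPM in JY1605.

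**Figure D4:**
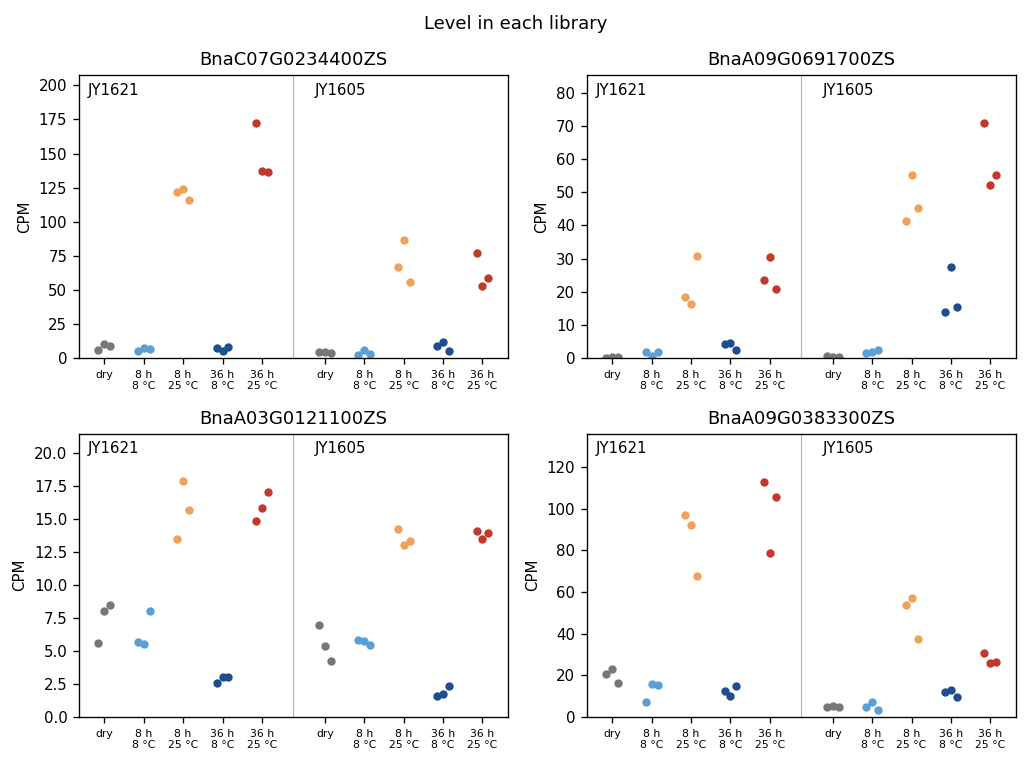
Level in CPM (y axis) of 4 gene models in each library (points) by condition (x axis), JY1621 left and JY1605 right in each panel. BnaC07G0234400ZS has the highest score, BnaA09G0691700ZS rises and BnaA03G0121100ZS falls at 36 h and 8 °C relative to dry seeds, and the temperature effect of BnaA09G0383300ZS at 36 h differs most between genotypes.

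Within the cold, 36 h against 8 h gave more higher than lower calls. In JY1621, 22 of 64 were called higher after 36 h and 4 lower, where 19.9% and 20.1% of all tested gene models were. In JY1605, 31 were called higher and 3 lower, where 23.8% and 23% were. The rule caps the higher of the 2 cold groups but does not set which one it is. Both genotypes called 21 higher, 32.8%, and 2 lower, 3.12%, against 14.6% and 13.7% of all tested gene models. The median log2 fold change was 0.78 in JY1621 and 0.71 in JY1605, against 0 and 0.05 in all gene models. Leaving out 8 h 8 °C replicate 3 or 36 h 8 °C replicate 2 of JY1621 left 2 lower calls there, and leaving out 8 h 8 °C replicate 1 of JY1605 gave 5. Under library size scaling the counts were 34 and 2 in JY1621, and 39 and 1 in JY1605. Of all tested gene models, that scaling called 26.8% higher and 15.2% lower in JY1621, and 33.9% and 15.2% in JY1605. By the same ranking the largest rise called in both was that of BnaA09G0713200ZS, which held 17.8, 15.2 and 17.5 CPM after 36 h at 8 °C in JY1621, against 1.81, 3.91 and 2.55 CPM after 8 h, and 8.24, 14.9 and 8.08 CPM in JY1605, against 0.45, 1.35 and 0.167 CPM. The log2 fold changes were 2.31 ± 0.321 and 3.39 ± 0.424 (SE; edgeR adjusted p = 1.63e-06 and 3.12e-07). The largest fall called in both was again that of BnaA03G0121100ZS, by 1.48 ± 0.181 in JY1621 and 2.04 ± 0.188 in JY1605 (log2, SE; edgeR adjusted p = 1.37e-09 and 4.63e-13), to the 36 h levels above, against 6.42 ± 1.42 and 5.70 ± 0.218 CPM after 8 h (SD, n = 3).

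Placed by group means, the dry level of 51 of 64 gene models in JY1621 and 60 in JY1605 was at or below the higher cold group. In the other 13 and 4 it lay between the cold and the 25 °C levels, and in none was it at or above the lower 25 °C level. These classes use CPM over library totals and were not counted on the TMM scale, where dry levels stand higher against the 36 h cold ones. At 36 h and 8 °C, 15 gene models in JY1621 and 9 in JY1605 were below dry seeds by mean CPM. In the TMM fit 22 and 15 had a log2 fold change below 0. Among all gene models that met the 25 °C thresholds and were lower in the cold by any margin, 2865 in JY1621 and 3963 in JY1605, 87.6% and 89.6% were at or below the higher cold group, 9.35% and 7.82% lay between, and 3.00% and 2.57% were at or above the lower 25 °C level. The order of the classes was thus the same in that wider set. Of the 12 gene models of the mirror-image rule, 8 in JY1621 and 9 in JY1605 had a dry level at or above the lower cold group.

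In dry seeds the genotypes already differed, and more often toward JY1621. Of 64, 22 were called higher in JY1621 and 2 lower, where 10.8% and 9.52% of all tested gene models were. The median log2 difference was 0.63, against 0 in all gene models, and leaving out any of the 6 dry libraries gave 18 to 23 higher calls. After 8 h at 8 °C, 17 were called higher and 4 lower, where 12.1% and 8.89% were. This count was 11 without replicate 3 of JY1605 or replicate 2 of JY1621, and the 4 lower calls became 2 without replicate 2 of JY1605. Library size scaling gave 24 and 2, where it called 15.4% and 7.05% of all tested gene models. These comparisons share no library, and 15 gene models were higher in both, 68.2% of those in dry seeds and 88.2% of those after 8 h at 8 °C. Among all tested gene models called higher, the same shares were 69.4% and 62%.

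At 8 h and 25 °C the counts were 9 higher and 4 lower in JY1621, where 12.9% and 11.6% of all tested gene models were. At 36 h and 25 °C they were 17 and 3, against 21.1% and 27% of all, so the higher calls in the warm were near the background. In the cold at 36 h they were 3 and 7, against 12.1% and 12.8% of all, and 5 and 4 without replicate 2 of JY1605. The median log2 differences were 0.39, 0.38 and 0.13, against -0.01, -0.13 and 0 in all gene models. Over the 5 conditions, 30 of the 64 gene models, 46.9%, were called in none, against 35.7% of all tested gene models. The rule asks for at least 5 CPM at 25 °C in both genotypes, which was not asked of all tested gene models. Shares of the 64 and of all are thus not like for like in the genotype comparisons.

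**Figure D5:**
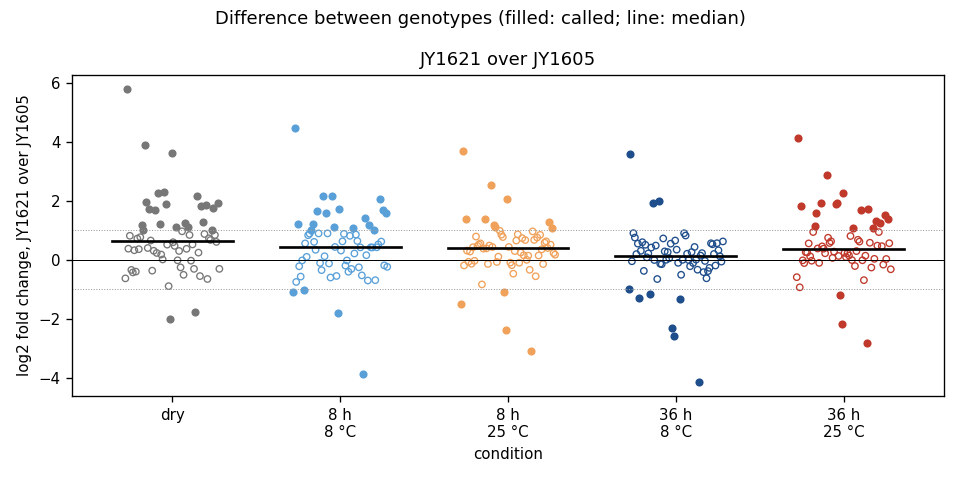
Log2 fold change of JY1621 over JY1605 (y axis) for each of the 64 gene models (points) in 5 conditions (x axis). Filled points were called by edgeR, dotted lines mark a log2 fold change of 1 and -1, and bars mark the medians, which were 0.63 in dry seeds and 0.13 after 36 h at 8 °C.

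In 3 gene models, 4.69%, JY1621 was called higher in all 5 conditions and in 2, 3.12%, lower, near the 3.06% and 3.51% of all tested gene models. BnaA02G0080200ZS, on A02, differed most. In dry seeds it held 10.4, 9.83 and 9.21 CPM in JY1621, against 0.238, 0.165 and 0.0702 CPM in JY1605, a log2 difference of 5.78 ± 0.3 (SE; edgeR adjusted p = 5.81e-20). The dry JY1605 level rests on counts of 4, 3 and 1, so the size of this difference is uncertain. After 36 h at 25 °C it held 118 ± 2.69 CPM in JY1621, against 7.06 ± 0.379 CPM in JY1605 (SD, n = 3), a log2 difference of 4.12 ± 0.13 (SE; edgeR adjusted p = 1.98e-27). In the cold at 36 h it held 24.2 ± 2.58 CPM in JY1621 and 1.95 ± 0.547 CPM in JY1605. BnaA09G0696700ZS, on A09, differed most in the other direction by the smallest of its 5 differences. It held 5.92 ± 0.563 CPM after 36 h at 25 °C in JY1621, against 28.2 ± 1.18 CPM in JY1605 (SD, n = 3), and 0.607, 0.808 and 1.33 CPM in dry JY1621 seeds, against 4.16, 3.36 and 3.37 CPM in JY1605. The log2 differences were -2.20 ± 0.13 and -2.02 ± 0.214 (SE; edgeR adjusted p = 4.97e-19 and 1.02e-10). No gene model with at least 5 CPM in the higher group was called lower in dry JY1621 seeds.

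The difference of the temperature effect between genotypes is part of the contrast the rule used, so its calls are given as a description. A negative value means that the log2 fold change of 8 °C over 25 °C was lower in JY1621. At 8 h, 5 of 64 were called higher and 2 lower, where 6.93% and 5.91% of all tested gene models were. Library size scaling gave 8 and 1, where it called 11.2% and 2.84% of all tested gene models. At 36 h, 0 were called higher by edgeR and 15 lower, where 19.8% and 20.8% were. With DESeq2 0 were higher and 15 lower. With library size scaling 2 were higher and 14 lower, against 22.1% and 18.9% of all tested gene models on that scale. An unadjusted p under 0.05 in either direction was found in 44, for which the share of all tested gene models is not given. Leaving out replicate 2 of JY1605 at 36 h and 8 °C gave 2 higher calls. There was 1 without its replicate 3, without replicate 2 of JY1605 at 25 °C, and without replicate 2 at 8 °C or replicate 3 at 25 °C of JY1621. At 8 h, 1 lower call was left without replicate 1 of JY1605 at 25 °C. Fold changes of 8 °C over 25 °C at 36 h had a median of -2.30 in JY1621 and -1.85 in JY1605. BnaA09G0383300ZS differed most: it held 12.6, 10.2 and 14.6 CPM after 36 h at 8 °C in JY1621, against 113, 78.7 and 106 CPM at 25 °C. In JY1605 it held 12.1, 12.9 and 9.45 CPM at 8 °C, against 30.5, 25.9 and 26.4 CPM at 25 °C. The cold levels of the genotypes overlapped and the 25 °C levels did not.

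The 64 gene models were spread over all 19 chromosomes. The A subgenome held 35, 54.7%, and the C subgenome 29, 45.3%, where 47.6% and 50.3% of all tested gene models lie. The chromosome with the most was A09, with 9, or 14.1%, against 7.66% of all tested, and none lay on an unplaced scaffold. These shares are a description with no test. Only 2 pairs lay within 5 places of each other in ID order, and both were direct neighbours. Neighbouring gene models can be near-identical copies that share reads, which the IDs do not show, so their separate levels are uncertain.

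On C06 the neighbours BnaC06G0107000ZS and BnaC06G0107100ZS, named after their values were seen, differed between genotypes in opposite directions. After 36 h at 25 °C BnaC06G0107000ZS held 6.94, 6.65 and 6.16 CPM in JY1621, against 49.1, 47.9 and 49.4 CPM in JY1605, a log2 difference of -2.81 ± 0.237 (SE; edgeR adjusted p = 2.78e-10). BnaC06G0107100ZS held 147, 121 and 130.0 CPM in JY1621, against 47.0, 36.4 and 43.8 CPM in JY1605, a log2 difference of 1.71 ± 0.226 (SE; edgeR adjusted p = 6.11e-07). Both were low in the cold in each genotype. On A09 the neighbours BnaA09G0383300ZS and BnaA09G0383200ZS, of which BnaA09G0383200ZS is likewise named after its values were seen, differed in the same direction there, by 1.91 ± 0.243 and 1.90 ± 0.227 (log2, SE; edgeR adjusted p = 3.72e-07 and 1.35e-07).

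The gene models spanned a wide range of levels. After 36 h at 25 °C group means ran from 5.84 to 1081 CPM in JY1621 with a median of 67.5, and from 7.06 to 755 CPM in JY1605 with a median of 41.5. The top of this range was BnaC06G0179900ZS, named after its values were seen, which alone made up 15.1% of the sum in JY1621 and 15.5% in JY1605. In dry seeds the means ran from 0.195 to 220.2 CPM in JY1621 with a median of 5.11, and from 0.126 to 208 CPM in JY1605 with a median of 3.34.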

How the data were processed

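Seeds of 2 genotypes were sequenced in 10 groups of 3 libraries. The deposited values are raw read counts per gene model. Per the submitters' processing notes, the tools were DESeq2 1.42.0, HISAT2 2.2.1 and featureCounts 2.0.6, whose settings, strand handling and build are not given here. The 64 gene models and all lists and tests were chosen with earlier results of these data known. Levels are CPM over library totals.

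Differences were tested with edgeR 4.0.16 in R 4.3.3 (quasi-likelihood F-test, robust, TMM factors from 0.732 to 1.19) fitted to the 30 libraries together, each group having 1 mean, after filterByExpr (minimum count 10, minimum total 15). A standard error is the absolute log2 fold change over the square root of F. The fit was tried on simulated counts for the contrast of genotypes in dry seeds only. The rule and the other contrasts were not simulated. Named gene models, by ID, are the 2 with the highest score and, per comparison, those called the same way in every genotype or condition it covers with the largest smallest fold change, 2 per direction for 25 °C against dry seeds and 1 otherwise, with at least 5 CPM required in dry seeds between genotypes; exceptions are stated. Replicates differed beyond sampling noise (chi-square per degree of freedom 2.61 to 6.79). Alternatives were other factors, no filter, DESeq2's Wald test, fits of the groups compared, a replicate block, no fold minimum, single libraries left out, and other settings of the rule.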

Additional observations from a re-analysis of the deposited data

Results flagged for a closer look

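The difference of the temperature effect between genotypes passed the threshold of the fit in some gene models, but the rule chose them on the same 4 group means at each time, so these values are a description and no independent test. At 8 h the calls were 5 on the higher side, where the log2 effect of cold was less negative in JY1621, and 2 on the lower side, and at 36 h 15 on the lower side. These are near or below the shares of all tested gene models, which were 6.93% and 5.91% at 8 h and 20.8% on the lower side at 36 h. At 8 h BnaC09G0015300ZS differed by 1.67 ± 0.302 (SE; edgeR adjusted p = 4.28e-05). It held 2.56, 3.41 and 2.25 CPM at 8 °C in JY1621, against 13.7, 13.0 and 14.3 CPM at 25 °C, and 0.514, 0.653 and 0.5 CPM at 8 °C in JY1605, against 10.2, 11.9 and 10.2 CPM at 25 °C. BnaC09G0472400ZS differed by -1.27 ± 0.274 (SE; edgeR adjusted p = 0.00113), with 8.88 ± 2.9 CPM at 8 °C in JY1621, against 49.7 ± 7.25 CPM at 25 °C, and 8.81 ± 1.06 CPM at 8 °C in JY1605, against 24.6 ± 3.04 CPM at 25 °C (SD, n = 3). At 36 h BnaA09G0383300ZS differed by -1.86 ± 0.361 (SE; edgeR adjusted p = 0.000148). In each of these the cold level was below the 25 °C level in 3 of 3 libraries of both genotypes, as the rule requires of group means.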

How the results depend on the processing

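The limits are few replicates, low counts in dry and cold seeds, and the scaling: scaled by library size, the all-gene median against dry seeds shifted by up to 0.66 (log2). The rule was met by 42 gene models with TMM-scaled CPM and 36 with a pseudocount of 5 CPM, all among the 64. With a pseudocount of 0.25 CPM it was met by 73, which held all 64. By group median it was met by 59, of which 53 were among the 64. Shares of all tested gene models without the fold minimum are not given, so the counts without it tell nothing particular to the 64. Without the fold minimum, lower calls against dry seeds at 8 h and 8 °C became 12 in JY1621 and 1 in JY1605, and higher ones 2 in JY1621. At 36 h and 8 °C there were 35 higher and 17 lower in JY1621, and 13 lower in JY1605. For 36 h against 8 h at 8 °C there were 39 higher and 10 lower in JY1621, and 11 lower in JY1605. For JY1621 against JY1605 there were 7 lower in dry seeds. The warm counts were 33 higher and 8 lower at 8 h, then 34 higher and 8 lower at 36 h. The cold counts were 30 higher and 11 lower at 8 h, then 20 higher and 12 lower at 36 h. Differences of the effect became 9 lower at 8 h, and 11 higher and 29 lower at 36 h. With library size scaling these were 8 higher and 1 lower at 8 h and 2 higher at 36 h, 2 gene models were lower in JY1621 than in JY1605 at 8 h and 8 °C, and 2 were higher at 8 h and 8 °C than dry in JY1621. On that scale 8.22% of all tested gene models were called higher at 8 h and 8 °C than dry in JY1621. The 36 h 8 °C counts against dry became 31 higher and 2 lower in JY1621 and 2 lower in JY1605, and those against 8 h 34 higher and 2 lower in JY1621 and 1 lower in JY1605. At 8 h and 8 °C against dry, JY1621 had 1 lower call without the filter, with DESeq2, with the groups compared only and with the replicate block, and 2 higher with the groups compared only. JY1605 had 4 higher without the filter and 1 with the groups compared only. For 36 h against 8 h in JY1621 there were 2 lower without the filter. Replicate numbers did not pair the libraries: deviations of same-numbered libraries correlated at -0.0907 to 0.103. The replicate block moved no other count by over 1.5 times. Leaving out single libraries gave 1 to 2 lower calls of the difference at 8 h and 0 to 2 higher at 36 h, 11 to 24 higher and 2 to 4 lower for the genotypes at 8 h and 8 °C, and 3 to 5 higher and 4 to 7 lower at 36 h and 8 °C. Against dry at 8 h and 8 °C it gave 0 to 2 higher and 0 to 2 lower in JY1621 and 0 to 2 higher in JY1605, and for 36 h against 8 h 2 to 4 lower in JY1621 and 3 to 5 in JY1605. The cause of these moves was not tested. Gene models named by the rule kept direction and call in the comparisons it named them for, in all alternatives run. Outside these, BnaA09G0691700ZS and BnaA05G0438100ZS lost their calls at 8 h and 8 °C against dry when single libraries were left out.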
